A study of Mus musculus with 2 samples.

Results

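The phagocyte NADPH oxidase genes described here are Cybb, Cyba, Ncf1, Ncf4, Rac1, Rac2 and Hvcn1. They were taken as all probe sets that the array's platform annotation assigns to exactly 1 of these 7 gene symbols and to no other gene. This gave 14 probe sets of 7 genes, out of 34958 probe sets with a single gene and 18194 named genes on the array. No probe set assigned to several genes held any of the 7 symbols. The samples were neutrophils from the bone marrow of C57BL/6 mice, an inbred laboratory strain. Live cells that were high in Gr-1, a granulocyte antigen, and lacked CD48, which most other blood cells carry, were collected by flow cytometry. The labels give 1 untreated group with 1 array from each of 2 independent experiments, called replicate 1 and replicate 2 after their titles, and give neither the age nor the number of the mice.

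The phagocyte oxidase moves electrons from NADPH across the membrane of the phagosome onto oxygen, which makes superoxide, the start of the respiratory burst with which neutrophils attack bacteria and fungi. In the resting cell its parts are kept apart. A flavocytochrome of 2 membrane proteins sits in granule and plasma membranes, the regulatory subunits wait in the cytosol, and a Rac GTPase joins them when the cell is activated. In people, inherited loss of a subunit causes chronic granulomatous disease, in which phagocytes take up microbes but fail to kill many of them.

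The start regions of 3 of the 7 genes were in the RefSeq promoter table (build GRCm38.p6), and all 3 are printed. Of these genes Cybb lay furthest from the median of all genes in its difference between the arrays (by 0.81 in log2). Hvcn1, with no region in the table, lay further (0.87). The regions printed are those of Cybb, of its membrane partner Cyba and of Ncf1. Each holds 250 bases before and 50 bases after the annotated start, read 5′ to 3′ on the strand of the gene, and all 3 genes lie on the minus strand. The regions are chrX:9469275-9469574 for Cybb, chr8:122432891-122433190 for Cyba and chr5:134229576-134229875 for Ncf1. Capitals mark every match, on either strand, to GAGGAA (the core of sites bound by the ETS factor PU.1), to CCAAT (the CCAAT box) and to GGGCGG (the GC box), and no marked matches overlap.
Cybb: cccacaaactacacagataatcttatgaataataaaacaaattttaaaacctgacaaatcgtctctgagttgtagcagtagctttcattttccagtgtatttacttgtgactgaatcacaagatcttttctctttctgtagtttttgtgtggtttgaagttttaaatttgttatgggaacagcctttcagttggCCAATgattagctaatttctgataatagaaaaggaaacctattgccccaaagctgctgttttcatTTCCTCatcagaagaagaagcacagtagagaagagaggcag
Cyba: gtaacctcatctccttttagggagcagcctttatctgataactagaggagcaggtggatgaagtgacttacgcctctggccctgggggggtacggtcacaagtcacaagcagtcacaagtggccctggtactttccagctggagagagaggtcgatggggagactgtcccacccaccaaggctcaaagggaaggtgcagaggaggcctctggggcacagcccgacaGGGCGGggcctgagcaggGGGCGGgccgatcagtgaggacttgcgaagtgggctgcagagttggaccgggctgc
Ncf1: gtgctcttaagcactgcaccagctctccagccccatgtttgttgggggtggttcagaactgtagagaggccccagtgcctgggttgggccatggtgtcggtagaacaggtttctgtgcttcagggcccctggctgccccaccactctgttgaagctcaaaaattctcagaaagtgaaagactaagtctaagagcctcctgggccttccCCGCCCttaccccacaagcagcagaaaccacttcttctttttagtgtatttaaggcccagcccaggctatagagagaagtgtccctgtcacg
In the Cybb region GAGGAA lay on the opposite strand (printed as TTCCTC) at positions 10 to 15 after the start, and CCAAT lay at -56 to -52. The Cyba region held GGGCGG at -24 to -19 and at -6 to -1, and the Ncf1 region held it on the opposite strand (printed as CCGCCC) at -42 to -37. The sequences also differed in base composition, with 35.3% G and C for Cybb, 60.7% for Cyba and 54% for Ncf1, against a median of 52.7% over all 32851 promoters of the table. Of those promoters 28.3% held GAGGAA, 37.4% held CCAAT and 35.7% held GGGCGG on either strand. A match describes these letters only and does not show that a factor was bound.

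The values are MAS5 signals, 1 linear intensity per probe set and array, and both arrays had been scaled before deposit to the same trimmed mean of 250.0 (2% of probe sets removed at each end). The background of an array is the 95th percentile of 87 probe sets for 78 sensory receptor genes (of smell, taste, pheromones and trace amines), which was 131 on replicate 2 and 108 on replicate 1. A probe set had to pass it on both arrays to be called, a gene needed 1 called probe set, and the level of a gene is the log2 signal of its brightest probe set. The 3′ to 5′ signal ratio of the control probe sets, which describes RNA length, was 1.25 on replicate 2 and 1.10 on replicate 1 for beta-actin, and for Gapdh it was 0.783 on replicate 2 and 0.762 on replicate 1. With 1 array per experiment no difference between the arrays has a replicate check, and none is given a p-value. Since the strength of binding differs between probe sets, the level of a gene was not set against that of another, and only calls and differences between the arrays were compared.

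All 7 oxidase genes were above background on both arrays, while 40.4% of all named genes were (7354 of 18194). Of their 14 probe sets 13 were above background, against 35.5% of all probe sets with a single gene. The exception was the Rac1 probe set 1437674_at. The genes were chosen for their known role in phagocytes, so this count describes these cells and is not a test.

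**Figure D1:**
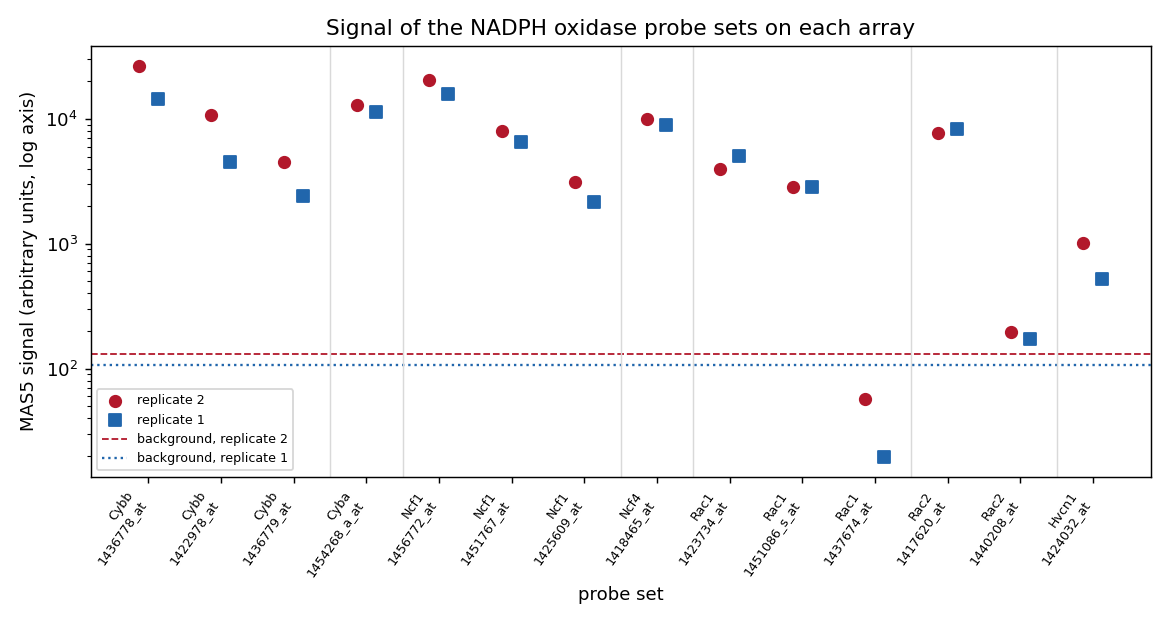
Signal of the 14 probe sets of the 7 oxidase genes (log axis, arbitrary units), with circles for replicate 2, squares for replicate 1 and lines for the background of each array. All but the Rac1 probe set 1437674_at lie above both lines, and all 3 Cybb probe sets are higher on replicate 2.

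Cybb encodes the electron-carrying, haem-binding subunit of the membrane flavocytochrome. Its brightest probe set, 1436778_at, read 26798 on replicate 2 and 14552 on replicate 1, a level of 14.27 ± 0.62 (log2, SD, n = 2). Probe set 1422978_at had 10780 on replicate 2 and 4495 on replicate 1, and probe set 1436779_at had 4549 on replicate 2 and 2433 on replicate 1. All 3 were higher on replicate 2, by 1.84-fold for 1436778_at, 2.40-fold for 1422978_at and 1.87-fold for 1436779_at. The probe sets 1436778_at and 1436779_at were designed on the same source sequence, per the platform annotation, so they are not separate observations.

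Cyba encodes the smaller membrane subunit, which stabilises the flavocytochrome and docks the cytosolic subunits. Its single probe set, 1454268_a_at, read 12895 on replicate 2 and 11391 on replicate 1, a level of 13.57 ± 0.13 (log2, SD, n = 2). The arrays differed there by 1.13-fold, less than on any Cybb probe set. The ratio of the Cybb signal to the Cyba signal, on their brightest probe sets, was therefore 1.63-fold higher on replicate 2, and this ratio within an array does not change when a whole array is multiplied by a factor.

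Ncf1 encodes the organiser subunit of the cytosolic complex, which is phosphorylated on activation and then binds the membrane subunit made from Cyba. Its brightest probe set, 1456772_at, had 20666 on replicate 2 and 15860 on replicate 1, a level of 14.14 ± 0.27 (log2, SD, n = 2). Probe set 1451767_at had 7938 on replicate 2 and 6491 on replicate 1, and 1425609_at had 3111 on replicate 2 and 2155 on replicate 1. All 3 were higher on replicate 2, by 1.22-fold to 1.44-fold, and the probe sets 1451767_at and 1425609_at share a source sequence. Ncf4 encodes the subunit whose PX domain binds the phosphoinositide PI3P of phagosome membranes. Its single probe set, 1418465_at, had 10026 on replicate 2 and 8927 on replicate 1, a level of 13.21 ± 0.12 (log2, SD, n = 2) and a difference of 1.12-fold.

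Rac1 and Rac2 encode closely related GTPases that bind the oxidase in their GTP form, and Rac2 is made mainly in blood cells. The brightest Rac2 probe set, 1417620_at, read 7689 on replicate 2 and 8256 on replicate 1, a level of 12.96 ± 0.07 (log2, SD, n = 2). The other Rac2 probe set, 1440208_at, lay close to the background, with 197 on replicate 2 and 173 on replicate 1, which is 1.50 times the background of replicate 2 and 1.61 times that of replicate 1. Both probe sets of Rac2 differed by at most 1.14-fold, in opposite directions.

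For Rac1, probe set 1423734_at had 4004 on replicate 2 and 5086 on replicate 1, a level of 12.14 ± 0.24 (log2, SD, n = 2). Probe set 1451086_s_at, from the same source sequence, had 2873 on replicate 2 and 2842 on replicate 1. The remaining Rac1 probe set, 1437674_at, had 56.9 on replicate 2 and 19.5 on replicate 1, below background on both, and no fold is given for it. The Rac1 call thus rests on probe sets of a single source sequence, and 1 of them has the suffix of probe sets that can bind transcripts of several genes.

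Hvcn1 encodes the voltage-gated proton channel that carries protons out of the cytosol and so balances the charge that the oxidase moves. Its single probe set, 1424032_at, read 1010 on replicate 2 and 525 on replicate 1, a level of 9.51 ± 0.67 (log2, SD, n = 2). It was 1.92-fold higher on replicate 2 and lay 7.68 times over the background of that array and 4.87 times over that of replicate 1.

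None of the 7 genes differed over 2-fold between the arrays on its brightest probe set, where 5.40% of the 7354 genes above background did (3.43% higher on replicate 2 and 1.97% lower). The Cybb probe set 1422978_at, which is not its brightest, did pass 2-fold. On the log2 scale, as replicate 2 minus replicate 1, the differences were 0.94 for Hvcn1, 0.88 for Cybb, 0.38 for Ncf1, 0.18 for Cyba, 0.17 for Ncf4, -0.10 for Rac2 and -0.34 for Rac1. The median of the 7 was 0.18 and that of all genes above background 0.07, with an SD of 0.50 over those genes. Of all genes above background, 6.68% differed by at least as much as Hvcn1 in either direction and 8.38% by at least as much as Cybb. The same share was 38.7% for Ncf1, 43.4% for Rac1, 67.9% for Cyba, 70.1% for Ncf4 and 81.5% for Rac2. Cybb and Hvcn1 thus stood near the edge of the spread and the other 5 genes well within it.

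**Figure D2:**
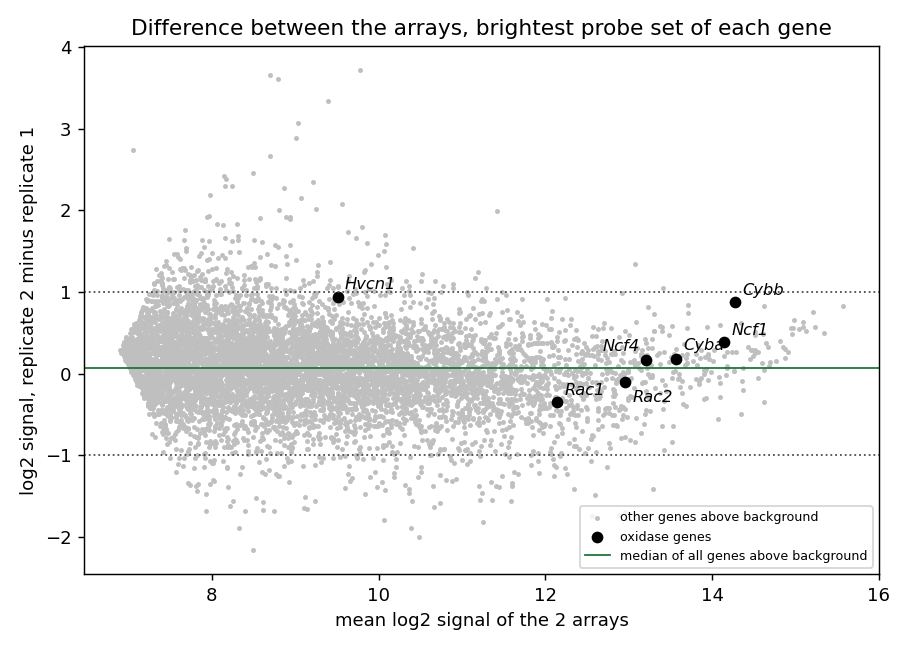
Difference in log2 signal (replicate 2 minus replicate 1) against the mean log2 signal of the 2 arrays, for the brightest probe set of each gene above background. Black points are the 7 oxidase genes, dotted lines mark 2-fold and the solid line the median of all genes (0.07), and Hvcn1 and Cybb lie just under the upper 2-fold line.

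The probe sets of a gene differed among themselves by 0.38 for the 3 of Cybb (log2 differences of 0.88 to 1.26), by 0.24 for the 3 of Ncf1 (0.29 to 0.53), by 0.29 for the 2 of Rac2 (-0.10 to 0.19) and by 0.36 for the 2 of Rac1 above background (-0.34 to 0.02). Over all 729 genes with 3 probe sets above background the median range was 0.42, and over the 1763 genes with 2 it was 0.26. In the order of the differences, Hvcn1 lay inside the range of the Cybb probe sets, and Cyba and Ncf4 inside that of Rac2, whose range also overlapped that of Rac1. The upper end of the Rac2 range, 0.19, came from probe set 1440208_at alone, which lay close to the background. The lowest Cybb difference, 0.88, lay above all 9 probe sets above background of Cyba, Ncf1, Ncf4, Rac1 and Rac2, of which the highest was 0.53. A correlation of patterns between genes cannot be measured over 2 arrays.

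The sign of 3 of the 7 differences depended on how the arrays were scaled. Control transcripts were brighter on replicate 2 although the deposited scaling had made the trimmed means equal. The 18 hybridisation control probe sets were 1.65-fold brighter there on average and the 24 labelling control probe sets 1.82-fold. Scaling to the hybridisation controls moved the median of all genes above background to -0.65 and that of the 7 genes to -0.54, and left Cybb (0.16) and Hvcn1 (0.22) higher on replicate 2 and the other 5 lower. Scaling to the labelling controls gave medians of -0.79 for all genes and -0.69 for the 7 genes, and the same split of 2 and 5. Cybb (0.017) and Hvcn1 (0.080) were then close to 0. The log2 differences of the labelling control probe sets ran from 0.28 to 1.24, so the signs of Cybb and Hvcn1 are not settled under this scaling. Relative to the median of all genes, which no common factor changes, Cybb stood at 0.81, Hvcn1 at 0.87, Ncf1 at 0.31, Cyba at 0.11, Ncf4 at 0.10, Rac2 at -0.17 and Rac1 at -0.42. After quantile normalization, which also evens out differences that depend on brightness, the relative values were 0.64 for Cybb, 0.90 for Hvcn1, 0.21 for Ncf1 and -0.32 for Rac1, and all 7 kept their side of the median.

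**Figure D3:**
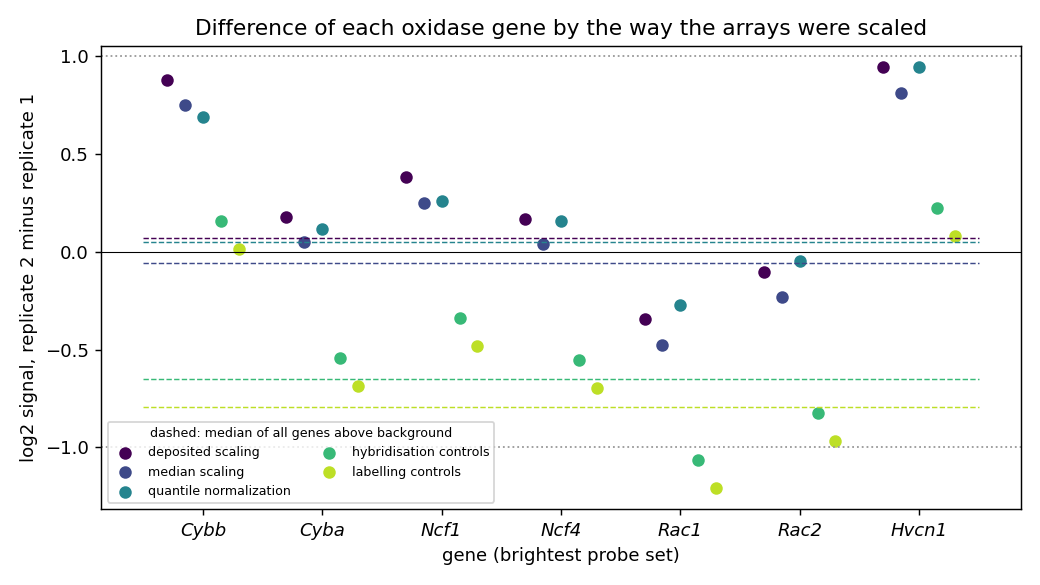
Difference in log2 signal (replicate 2 minus replicate 1) of each oxidase gene under 5 scalings of the arrays, with dashed lines at the median of all genes above background under each. Cybb and Hvcn1 lie above 0 under each scaling, but only at 0.017 and 0.080 with the labelling controls. Cyba, Ncf1 and Ncf4 lie below 0 under both control scalings.

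Of 61 measured genes in 8 lists of genes related to the oxidase, 45 were above background (73.8%, against 40.4% of all genes). Under the deposited scaling 1 of the 45 was over 2-fold higher and 1 over 2-fold lower on replicate 2. Of all genes above background, 3.43% were over 2-fold higher and 1.97% over 2-fold lower. The count for these lists was not made under the other scalings. None of the 5 measured genes of the other NADPH oxidases and their partners was above background on both arrays. Nox4, Duoxa1 and Duoxa2 read 13.6, 18.4 and 64.9 on replicate 2, and 34.4, 22.8 and 21.7 on replicate 1. Duox1, with 48.8 on replicate 2 and 114 on replicate 1, was above background on replicate 1 alone. Of the measured catalytic subunit genes Cybb, Nox4 and Duox1, only Cybb was thus called on both arrays. Nox1, Nox3 and Duox2 had no probe set of their own. Cybc1, which encodes the chaperone needed to make the flavocytochrome, read 1252 on replicate 2 and 1581 on replicate 1, while the Rac gene Rac3 was below background on both arrays, with 27.2 on replicate 2 and 84.3 on replicate 1.

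Of the genes that regulate Rac, together with Rap1, 10 of 11 were above background. The Rac exchange factor genes Vav1, Vav3 and Dock2 read 905, 916 and 2068 on replicate 2, and 1193, 1403 and 2038 on replicate 1, while Vav2 (29.9 on replicate 2 and 59.5 on replicate 1) was below background. Tiam1, another Rac exchange factor gene, was named after its value was seen. As deposited, it was the gene of these lists over 2-fold higher on replicate 2, with 1097 there and 425 on replicate 1. The median difference of the 10 genes was -0.17, beside 0.18 for the oxidase genes, but with the hybridisation controls both were below 0, at -0.89 and -0.54. Relative to the median of all genes the 10 genes stood at -0.24 and the oxidase genes at 0.11 under the deposited scaling and both control scalings. Among kinases that phosphorylate oxidase subunits 6 of 8 were above background (median difference -0.15, and -0.87 with the hybridisation controls). The protein kinase C genes Prkcd and Prkcb read 2999 and 4010 on replicate 2, and 3452 and 3114 on replicate 1, while Prkca and Prkcz were below background on both arrays.

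All 8 genes of phosphoinositide and arachidonate signals to the oxidase were above background (median difference -0.08, and -0.81 with the hybridisation controls). The PI3-kinase genes Pik3cg, Pik3cd, Pik3cb and Pik3r5 read 1172, 25561, 1084 and 827 on replicate 2, and 1461, 24763, 760 and 1642 on replicate 1. Of the genes that supply NADPH, chiefly through the pentose phosphate pathway, 8 of 10 were above background. The transketolase gene Tkt, the phosphogluconate dehydrogenase gene Pgd and Pgls read 25913, 17159 and 345 on replicate 2, and 16842, 14497 and 197 on replicate 1. G6pd2 was below background on both arrays, and Me1 (83.5 on replicate 2 and 116 on replicate 1) was above it on replicate 1 alone. G6pdx, also in this list, had no probe set of its own and was not measured, and G6pd2 does not stand in for it. The median difference of the 8 genes was 0.53, with 7 of them higher on replicate 2. It was -0.19 after scaling to the hybridisation controls and -0.33 after scaling to the labelling controls, which is 0.46 over the median of all genes under both.

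Of the genes that remove superoxide and peroxide, or use the peroxide, 6 of 8 were above background. Their median difference was 0.24, but -0.48 with the hybridisation controls and -0.63 with the labelling controls. The superoxide dismutase genes Sod1 and Sod2 and the catalase gene Cat read 512, 681 and 661 on replicate 2, and 469, 535 and 435 on replicate 1, while Sod3 was below background on both arrays. Of the transcription factor genes linked to oxidase genes 6 of 9 were above background, with a median difference of -0.29, and of -1.02 with the hybridisation controls. Spi1, which encodes PU.1, Elf1 and Irf1 read 1056, 1364 and 1148 on replicate 2, and 1171, 1846 and 2136 on replicate 1, while Irf8 (88.8 on replicate 2 and 98.7 on replicate 1) was below background. Cebpb was named after its value was seen. As deposited, it was the gene of these lists over 2-fold lower on replicate 2, with 2986 there and 6491 on replicate 1. No difference between lists was tested.

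**Figure D4:**
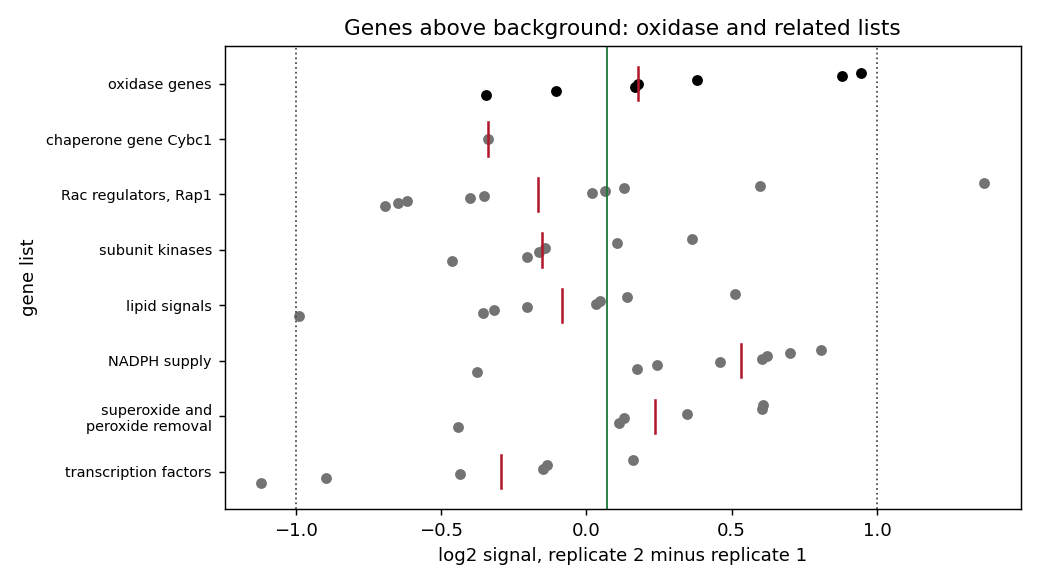
Difference in log2 signal (replicate 2 minus replicate 1) of each gene above background, for the oxidase genes and 7 related lists, with a red bar at the median of each list, dotted lines at 2-fold and a solid line at the median of all genes (0.07). The oxidase genes run from -0.34 to 0.94, and of the genes drawn only Tiam1 and Cebpb pass the 2-fold lines.

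The label of neutrophils was checked against markers. All 9 measured neutrophil markers were above background, among them Ltf, Camp and Lcn2 with 33399, 39049 and 42806 on replicate 2, and 18878, 26404 and 29701 on replicate 1. The list did not move one way, since Cxcr2 (3224 on replicate 2 and 7212 on replicate 1) and Csf3r (4670 on replicate 2 and 7951 on replicate 1) were lower on replicate 2, and its median difference was 0.56 as deposited and -0.01 after quantile normalization. Other marrow cells also make oxidase subunits, and in a bulk sample fewer cells of a type and less RNA per cell cannot be told apart. Of the monocyte markers 4 of 8 were above background, with a summed signal of 3564 on replicate 2 and 7055 on replicate 1. Among them Csf1r, Ccr2 and F13a1 read 1928, 220 and 231 on replicate 2, and 5020, 157 and 264 on replicate 1. Above background were 3 of the 10 macrophage markers, with a summed signal of 928 on replicate 2 and 1430.5 on replicate 1. Adgre1 and C1qb read 217 and 163 on replicate 2, and 627 and 256 on replicate 1, while C1qa was below background on both arrays. Of the eosinophil markers 1 of 5, Siglecf, was above background, with Epx and Prg2 below it and a summed signal of 447 on replicate 2 and 427 on replicate 1. Of the B cell markers 1 of 8 was above background, namely Igll1 (167 on replicate 2 and 173 on replicate 1), with Cd79a and Cd79b below it on both arrays. Above background on replicate 2 alone were Ms4a1 (158 on replicate 2 and 72.6 on replicate 1) and Pax5 (174 on replicate 2 and 88.8 on replicate 1). The summed B cell signal was 796 on replicate 2 and 424 on replicate 1, and its difference came from markers not above background on both arrays. Of the dendritic cell markers 1 of 7, of the T and NK cell markers 1 of 7 and of the erythroid markers 2 of 6 were above background. Beside all these marker counts, 40.4% of all named genes were above background on both arrays.

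The markers of dividing cells differed far more than any oxidase gene. Of these 10 genes 8 were above background on both arrays and all 8 were over 2-fold higher on replicate 2, against 3.43% of all genes above background. The median of their log2 differences was 2.98 as deposited, 2.26 with the hybridisation controls and 2.12 with the labelling controls. Their summed signal over the 10 genes was 11173 on replicate 2 and 1407 on replicate 1. The part of dividing cells or of the brightness of the arrays in the differences of Cybb and Hvcn1 was not tested.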

How the data were processed

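Labelled RNA (200 ng per sample) was hybridised to Affymetrix arrays, 1 for each of the experiments, per the labels' protocols. The deposited values are linear signal intensities that the authors computed in MAS5, according to the submitters' processing notes, with a version and settings not given in the sources. The number of arrays, 2, limits the precision. Of 45101 probe sets, 34958 had 1 gene in the platform annotation, 932 had several and 9211 had none, and only the first kind was named. All 7 gene identifiers had the same symbol in the NCBI mouse gene table (GRCm38.p6).

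Background calls, log2 signals (floored at 1) and differences (replicate 2 minus replicate 1) were computed with Python 3.11.15, numpy 2.4.6 and pandas 2.3.3, and the procedure was tested on simulated data. No p-value was computed. Of each related list the first 4 measured genes were named, with up to 4 whose call went against over 75% of their list, and the first 3 neutrophil, monocyte, macrophage and eosinophil markers. Tiam1, Cebpb, Cxcr2, Csf3r, Igll1, Cd79a, Cd79b, Ms4a1 and Pax5 were named outside this rule. The members and lists were chosen with earlier results of these data known. The alternatives changed the background, the scaling, the probe sets, the filter and the arrays used, or added 32 to the signal, and scaling to the labelling controls was added after the data were seen. Listed genes without a probe set of their own were not analysed here.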

Additional observations from a re-analysis of the deposited data

How the results depend on the processing

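All 7 oxidase genes stayed above background with the 90th or 99th percentile, with genes of other organs as the background, after quantile normalization, without probe sets ending in _x_at or _s_at, and on each array alone (7 without replicate 1 and 7 without replicate 2). When every probe set of a gene had to be above background, 6 were, since a Rac1 probe set was not. The count of genes over 2-fold, 0 as reported, was 1 after scaling to the hybridisation controls (Rac1, -1.07), 1 after scaling to the labelling controls (Rac1, -1.21) and 1 with the mean over probe sets (Cybb, 1.02). The median difference, 0.18 as reported, was 0.050 with median scaling, -0.54 with the hybridisation controls and -0.69 with the labelling controls. Cyba, Ncf1 and Ncf4, above 0 as reported, were -0.54, -0.34 and -0.55 with the hybridisation controls and -0.69, -0.48 and -0.70 with the labelling controls. The mean over probe sets put Rac2 at 0.043. These shifts follow from the factor applied to replicate 2 or from the probe sets averaged. No paired analysis was possible because the labels give a single group. Differences between 2 arrays have no error of their own, and calls near background, such as that of the Rac2 probe set 1440208_at, are the least certain.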
